A study of Homo sapiens with 4 samples.

Results

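Genes that build and duplicate the centrosome were examined in K562 cells, an established human leukaemia line that is aneuploid and carries the BCR-ABL1 fusion, after 3 h with clofarabine. The set was given by name and holds 10 genes, PLK4, STIL, SASS6, CENPJ, CEP135, CEP63, CEP152, CEP192, PCNT and NEK2, of 23615 in the deposited table. All 10 were found there and all had enough fragments to be tested. The clofarabine group consisted of 2 libraries, here called C0 and C1, from cells given 5 µM clofarabine in 0.005% DMSO, and the DMSO group of 2 libraries, V0 and V1, from cells given DMSO, the solvent of the drug. Both groups were sampled at 3 h, and the labels give no other difference between them. The DMSO percentage of the DMSO group is not stated. Clofarabine is a purine nucleoside drug that, once phosphorylated in the cell, blocks the making of deoxynucleotides and of DNA. The table names its conditions only C and V. C was read as clofarabine and V as vehicle, and every direction below would reverse under the opposite reading.

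A centrosome is a pair of centrioles, short barrels of microtubules, embedded in a protein matrix from which microtubules grow. A new centriole starts on the wall of an old one when the kinase PLK4, held there by the scaffolds CEP192, CEP152 and CEP63, phosphorylates STIL, which then brings in SASS6 to form a cartwheel that templates the barrel. CENPJ and CEP135 build the wall, PCNT organises the matrix, and NEK2 loosens the linker between centrosomes as mitosis begins. Duplication begins as cells enter S phase, the phase that clofarabine interferes with, whereas centrosome maturation and separation belong to G2 and mitosis.

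Of the 10 genes, 1 passed the test (an edgeR adjusted p under 0.05), and it was lower, where 2.57% of the 11761 genes tested passed. STIL fell after clofarabine, 0 genes rose, and 9 were not called. NEK2 and CEP192 lay below DMSO in both clofarabine libraries by a smaller margin that did not pass, and the other 7 had intervals that included no change. Of 18 genes that act in centrosome maturation, separation and mitosis, 9 were called lower, against 1.03% of all tested genes. That list was chosen with earlier results of these data known and includes general genes of mitosis, so its share is descriptive only.

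The promoters of the genes with an interval wholly below no change, STIL, NEK2 and CEP192, are shown. These 3 genes had the most negative log2 fold changes of the set. Each stretch is the 250 bases before the RefSeq transcription start (GRCh38.p14, matched by symbol, while the deposited values were made on hg19), written 5′ to 3′ on the gene's own strand. That of STIL lies at chr1:47314148-47314397 on the minus strand, that of NEK2 at chr1:211675622-211675871 on the minus strand and that of CEP192 at chr18:12991112-12991361 on the plus strand. Capitals mark every match, on either strand, to the CCAAT box, to an E2F core or to the cell cycle homology region, all of them elements common in cell cycle genes. The E2F core was searched as TTCCCGC and, with other inner letters, as TTGGCGC, while the spelling TTCGCGC and likewise the spelling TTGCCGC were counted too. The cell cycle homology region was searched as TTTGAA and in its other form as TTCGAA. The strand was not distinguished, so that a match on the opposite strand reads as its reverse complement.
STIL: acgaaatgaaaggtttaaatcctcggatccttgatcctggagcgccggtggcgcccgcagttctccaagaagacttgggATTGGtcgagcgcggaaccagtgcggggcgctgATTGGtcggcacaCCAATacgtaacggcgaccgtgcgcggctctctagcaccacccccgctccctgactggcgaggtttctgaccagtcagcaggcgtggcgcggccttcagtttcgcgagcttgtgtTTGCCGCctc
NEK2: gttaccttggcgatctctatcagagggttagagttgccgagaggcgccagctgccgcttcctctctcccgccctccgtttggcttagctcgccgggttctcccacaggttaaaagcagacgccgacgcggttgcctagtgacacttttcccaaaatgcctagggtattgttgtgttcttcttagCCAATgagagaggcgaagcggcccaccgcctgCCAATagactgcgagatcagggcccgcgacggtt
CEP192: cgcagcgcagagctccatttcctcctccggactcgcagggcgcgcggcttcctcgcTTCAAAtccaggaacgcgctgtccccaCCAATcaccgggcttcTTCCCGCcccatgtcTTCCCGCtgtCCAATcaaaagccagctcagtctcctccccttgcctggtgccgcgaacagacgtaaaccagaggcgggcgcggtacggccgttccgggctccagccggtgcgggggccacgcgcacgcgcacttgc

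STIL held 3 CCAAT boxes, which begin 171, 138 and 125 bases before the start, and an E2F core 10 bases before it, with another E2F core 3 bases into the transcript. NEK2 held 2 CCAAT boxes, 66 and 34 bases before the start, and no match to the other motifs in its 300 base window. CEP192 held all 3 kinds upstream, a cell cycle homology region at 194, CCAAT boxes at 167 and 126 and E2F cores at 151 and 136 bases before the start. No match of one motif overlapped a match of another. Over the whole 300 base windows, which end 50 bases after the start, the 10 genes had 14 windows. The CCAAT box was in a window of 6 of the genes, an E2F core in 6 and a cell cycle homology region in 4 (PLK4, CEP135, CEP152 and CEP192). Counted by window, the CCAAT box was in 7 of the 14, an E2F core in 7 and a cell cycle homology region in 4. Of the 35116 human promoter windows of the same length, 34.6% held a CCAAT box, 13% an E2F core and 16.4% a cell cycle homology region. These matches describe letters, not binding.

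The 4 libraries held between 8370550 and 23888755 estimated fragments, C1 being the deepest and V0 the shallowest, and the 10 genes had between 81 fragments (CEP63 in V0) and 1708 (NEK2 in C1). Of 9 markers of K562 and its erythroid features, all were present at 67.8 to 5903 CPM (each gene's share of the fragments of a library, scaled between libraries). Among genes of other cell types or deleted in K562, MS4A1 and CDKN2A were at 0 in every library, CD3E, CD79A and ALB were at 0.3015 CPM or less, and COL1A1 at 0.692 to 1.73 CPM. EPCAM, also of other cell types, was at 70.8 to 75.2 CPM, within the range of the 9 markers. Among 11761 tested genes, edgeR's quasi-likelihood test called 302, of which 181 were higher and 121 lower with clofarabine. Library sizes alone as the scaling gave 170 higher and 200 lower, and log2(FPKM + 1) gave 19 higher and 37 lower. Without C0 636 genes were called and without V1 130. Nothing in the labels says that the 4 samples came from separate cultures, and the p-values therefore reflect only how far these libraries differ, possibly for technical reasons. Fewer cells with a transcript and less of it per cell cannot be told apart in such bulk RNA.

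Levels between genes were compared as FPKM, which divides by transcript length. NEK2 stood highest, with a mean of 36.4 ± 1.65 FPKM in clofarabine and 43.8 ± 2.62 FPKM in DMSO (SD, n = 2 each), and STIL followed with 13.2 ± 0.245 FPKM in clofarabine and 17.2 ± 0.246 FPKM in DMSO. PLK4 came next (9.24 ± 0.482 FPKM in clofarabine and 9.98 ± 0.407 in DMSO). The ranges of these 3 genes over the 4 libraries did not overlap each other. Below them CEP192, SASS6, PCNT, CEP152 and CEP63 formed a series between 4.05 and 8.31 FPKM in which each gene's range overlapped that of its neighbour. CENPJ and CEP135 were lowest, between 3.56 and 3.92 FPKM and between 2.69 and 3.75 FPKM over the 4 libraries. The highest mean level was 12.1 times the lowest, and among tested genes NEK2 stood at percentile 80 of FPKM, PLK4 at percentile 49.4 and CEP135 at percentile 27.

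**Figure D1:**
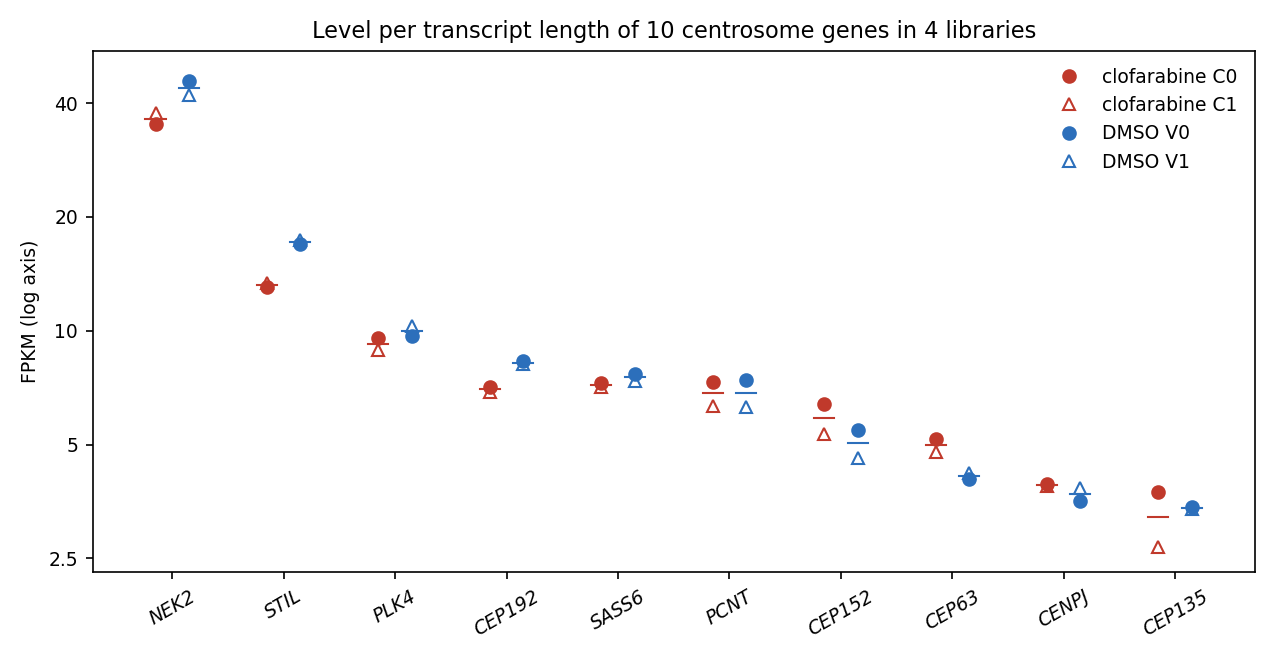
FPKM of the 10 centrosome genes in each library on a log axis, with circles for the libraries numbered 0, triangles for those numbered 1, clofarabine in red on the left of each pair, DMSO in blue on the right, and lines at the group means. STIL shows the clearest separation, at 13.1 and 13.4 FPKM in clofarabine and 17.01 and 17.35 FPKM in DMSO, while CEP135 is spread most widely within clofarabine.

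PLK4 is the kinase that triggers centriole duplication. It had 36.0 and 33.5 CPM in clofarabine libraries C0 and C1, against 36.4 and 38.2 CPM in DMSO libraries V0 and V1. Its log2 fold change, clofarabine over DMSO, was -0.11 (SE 0.10, edgeR adjusted p = 0.722), with a 95% interval from 0.802 to 1.08 on the fold scale. The groups did not overlap, but the gap between C0 and V0 was smaller than the distance between the libraries of either group.

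STIL and SASS6 form the cartwheel. STIL, which PLK4 phosphorylates, had 64.5 and 66.4 CPM in clofarabine, against 83.8 and 85.9 CPM in DMSO, so that each clofarabine library lay well under both DMSO libraries and the replicates of a group nearly coincided. The log2 fold change was -0.37 (SE 0.078, edgeR adjusted p = 0.00893), a level 22.9% lower, with an interval from 0.689 to 0.863 on the fold scale. Its rank by p among the 11761 tested genes was 122. The call was also made by DESeq2 (adjusted p = 0.0257) and limma-voom (adjusted p = 0.0112). It was not made on log2(FPKM + 1) (adjusted p = 0.1499) or without V1 (-0.36, adjusted p = 0.113). The value was negative throughout, and over all alternatives the log2 fold change ran between -0.41 and -0.35. SASS6, the structural protein of the cartwheel spokes, had 27.5 and 27.0 CPM in clofarabine, against 29.1 and 28.0 CPM in DMSO (log2 fold change -0.065, SE 0.11, edgeR adjusted p = 0.873). Its interval, from 0.811 to 1.13 on the fold scale, overlapped that of STIL, and the difference between these partners was not tested.

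The 3 genes whose library values most resembled those of STIL were ST6GAL1, CDK5R1 and NFE2. They were the nearest of 8480 genes with a mean of at least 10 CPM, by Euclidean distance (0.023, 0.024 and 0.025 in that order) between log2 CPM values centred per gene over the 4 libraries. ST6GAL1, a sialyltransferase, had 58.0 and 59.5 CPM in clofarabine and 75.8 and 76.0 CPM in DMSO. NFE2, an erythroid transcription factor, had 164.8 and 173.5 CPM in clofarabine and 215.6 and 222.1 CPM in DMSO. Both were called lower, with log2 fold changes of -0.37 for each (edgeR adjusted p = 0.0124 for ST6GAL1 and 0.00196 for NFE2), while CDK5R1, an activator of the kinase CDK5, was not (-0.40, edgeR adjusted p = 0.266). No other centrosome gene of the set was among them.

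CENPJ, also known as CPAP, lengthens the centriolar microtubules. It had 19.97 and 19.69 CPM in clofarabine, against 18.0 and 19.4 CPM in DMSO, groups that stood apart by less than the distance between the DMSO libraries (log2 fold change 0.081, SE 0.13, edgeR adjusted p = 0.860, interval 0.874 to 1.28 on the fold scale). CEP135, which ties the cartwheel to the wall, had 21.3 and 15.3 CPM in clofarabine, against 19.4 and 19.2 CPM in DMSO. Here the DMSO libraries lay between the clofarabine libraries. Its log2 fold change was -0.10 (SE 0.15, edgeR adjusted p = 0.844), and it was 0.14 without C1 and -0.34 without C0, so its direction depended on which clofarabine library was used.

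The log2 fold changes of the scaffolds that recruit PLK4 differed in sign, but none of these genes was called. Differences among them were not tested. CEP192, which also recruits matrix proteins, had 56.75 and 54.99 CPM in clofarabine, against 66.2 and 65.2 CPM in DMSO. Both clofarabine libraries were lower than both DMSO libraries by more than the spread within a group. The log2 fold change was -0.23 (SE 0.083, interval 0.755 to 0.957 on the fold scale) with an unadjusted p of 0.00965 and an edgeR adjusted p of 0.164, so that it was not called, nor was it under any alternative at the 0.05 threshold, where the lowest adjusted p was 0.0516. CEP152, which binds PLK4 directly, had 35.6 and 29.4 CPM in clofarabine, against 30.5 and 25.7 CPM in DMSO, and the groups overlapped (log2 fold change 0.21, SE 0.12, edgeR adjusted p = 0.4999, interval 0.965 to 1.38 on the fold scale). It ranged between 0.075 and 0.35 on the log2 scale as each library was left out. CEP63, the partner of CEP152, had 11.5 and 10.8 CPM in clofarabine, against 9.54 and 9.63 CPM in DMSO. The clofarabine libraries were the higher ones, but the gene had the fewest fragments of the set, with a counting error of 11.1% in V0, and it was not called (log2 fold change 0.21, SE 0.17, edgeR adjusted p = 0.654, interval 0.907 to 1.48 on the fold scale).

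PCNT, or pericentrin, had 77.9 and 67.4 CPM in clofarabine, against 78.7 and 66.8 CPM in DMSO, values that fell into a high and a low library in each group. Its log2 fold change was -0.0034 (SE 0.092, edgeR adjusted p = 0.995, interval 0.874 to 1.14 on the fold scale), and it was 0.10 without C1, 0.12 without V0, -0.10 without C0 and -0.13 without V1. NEK2, the linker kinase, had 69.1 and 73.9 CPM in clofarabine, against 89.8 and 82.6 CPM in DMSO. Both clofarabine libraries were lower than both DMSO libraries, with a gap larger than the distance between the libraries of either group. The log2 fold change was -0.26 (SE 0.080, interval 0.742 to 0.935 on the fold scale), with an unadjusted p of 0.0034 and an edgeR adjusted p of 0.0914, which missed the threshold. NEK2 was called without C1 (log2 fold change -0.32, adjusted p = 0.0435), with library sizes alone as the scaling (adjusted p = 0.0345) and after removal of a length trend (adjusted p = 0.0353). It was not called by DESeq2 (adjusted p = 0.232) or limma-voom (adjusted p = 0.113).

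**Figure D2:**
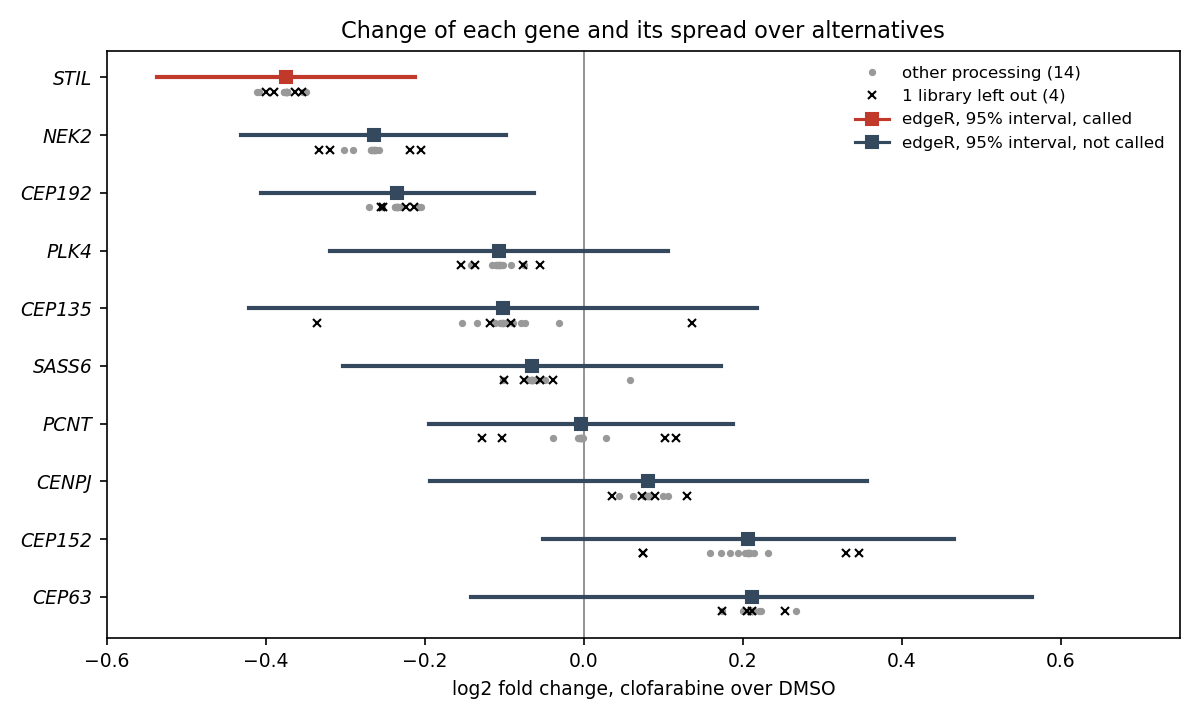
Log2 fold change of each gene, clofarabine over DMSO, with its 95% interval from edgeR (squares and lines, red where called), and below it the value under 14 other ways of processing (grey dots) and with each of the 4 libraries left out (crosses). STIL, NEK2, CEP192 and PLK4 lie below 0 in every alternative, and CEP135 and PCNT have crosses on either side of 0.

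The lower call, 1 of 10 genes, compares with 1.03% of tested genes called lower and 2.57% called in either direction. By edgeR 0 genes of the set were called higher, where 1.54% of tested genes were, 0 had an unadjusted p under 0.05 in that direction, and 0 were called higher by DESeq2 (which gave no adjusted p for 5 of the 10) or limma-voom. An unadjusted p under 0.05 was reached by 3 of the 10, STIL, NEK2 and CEP192, and by 14.2% of tested genes. All 3 were lower, a direction in which 6.06% of tested genes reached it. The groups did not overlap in 7 of the 10, 5 of them lower and 2 higher, against 43.2% of tested genes, 21.3% lower and 22% higher. The median log2 fold change was -0.083 over the 10 genes and 0.0020 over all tested genes, and 7 of the 10 values were negative.

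The libraries of 1 group differed more for some of the genes than the groups did. In clofarabine, C1 was lower than C0 by 0.47 on the log2 CPM scale for CEP135, by 0.27 for CEP152 and by 0.21 for PCNT, and in DMSO, V1 was lower than V0 by 0.25 for CEP152 and by 0.23 for PCNT. These genes are among the long transcripts, between the 86th and the 98.4th percentile of the length implied by fragments and FPKM. Over all tested genes, the median difference between C1 and C0 was 0.14 in the class of shortest transcripts and -0.088 in the longest of 10 classes, and that between V1 and V0 was 0.017 and -0.035. STIL, at the 81.5th percentile, differed between C1 and C0 by 0.041, and CEP192, at the 95.4th, by -0.045. Once a trend on length was removed from each library, the log2 fold change was -0.35 for STIL (adjusted p = 0.00223), -0.21 for CEP192, -0.079 for CEP135, 0.23 for CEP152 and 0.028 for PCNT, so that STIL was still called and CEP192, CEP135, CEP152 and PCNT were not.

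**Figure D3:**
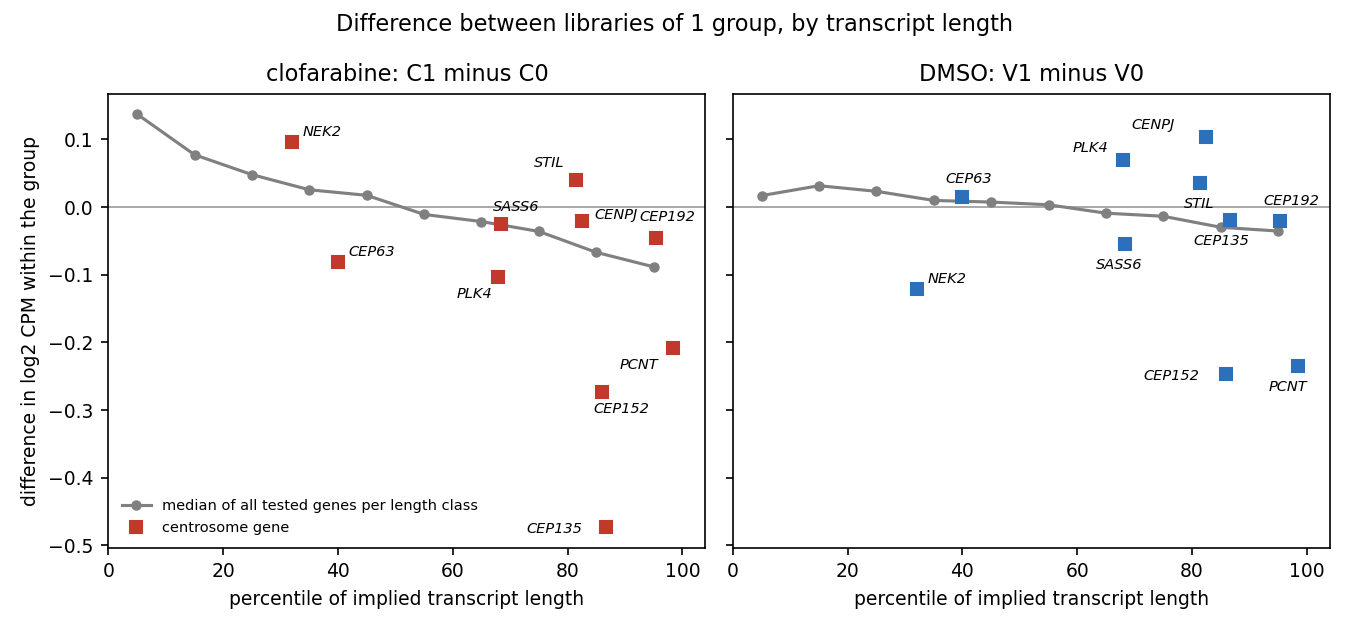
Difference in log2 CPM between the libraries of a group, C1 minus C0 on the left and V1 minus V0 on the right, against the percentile of implied transcript length for the 10 genes (squares), with the median of all tested genes in each of 10 length classes (grey line). CEP135 lies at -0.47 in clofarabine, and CEP152 and PCNT lie under the line in both groups.

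Other genes of the centrosome, of its regulation and of mitosis were counted in lists by function, which hold none of the 10. The lists were chosen with earlier results of these data known. Of all tested genes, edgeR called 1.54% higher and 1.03% lower. DESeq2 gave no adjusted p for SASS6, CENPJ, CEP135, CEP63 and CEP152, so list genes at similar levels may have gone unjudged by it. Of 31 tested genes of centriole assembly and length control, edgeR called 0, with 3 higher and 2 lower at an unadjusted p under 0.05. Limma-voom also called 0, as did DESeq2 among the genes it judged. The median log2 fold change was 0.028. The gene of smallest p was TUBD1, a tubulin of the centriole, at 25.1 and 26.4 CPM in clofarabine, against 35.7 and 30.9 CPM in DMSO (log2 fold change -0.36, edgeR adjusted p = 0.118). CETN3, a centrin, was called higher without C0 (0.43, adjusted p = 0.0354) and CEP295, which stabilises new centrioles and is listed under its older symbol KIAA1731, without V0 (0.44, adjusted p = 0.0499). CEP57, a centrosomal scaffold, was called higher once the length trend was removed (0.25, adjusted p = 0.0438). CETN3, CEP295 and CEP57 were chosen after their values were seen.

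Of 18 tested genes of the pericentriolar matrix and the gamma-tubulin ring, which nucleates microtubules, edgeR, DESeq2 and limma-voom called 0, and edgeR gave 1 higher and 1 lower at an unadjusted p under 0.05. PCM1, a component of centriolar satellites, had 191.4 and 183.2 CPM in clofarabine, against 172.4 and 159.2 CPM in DMSO (log2 fold change 0.18, edgeR adjusted p = 0.22). It was called higher once the length trend was removed (0.21, adjusted p = 0.0364). Of 13 genes of the centrosome linker and of NEK2's regulation, and of 13 of the centriole appendages, these tools likewise called 0, with 0 higher and 1 lower, and 0 higher and 2 lower, at an unadjusted p under 0.05. Their genes of smallest p were CEP85, a NEK2 antagonist, at 94.8 and 96.9 CPM in clofarabine against 103.7 and 110.3 CPM in DMSO (edgeR adjusted p = 0.327), and CEP164, of the distal appendages, at 9.04 and 8.52 CPM in clofarabine against 11.9 and 12.2 CPM in DMSO (edgeR adjusted p = 0.189).

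Of 18 tested genes of centrosome maturation, separation and mitosis, 9 fell, 0 rose and 9 were not called, 17 had a negative log2 fold change, and the median was -0.35. By edgeR 0 were higher and 15 lower at an unadjusted p under 0.05, and DESeq2 and limma-voom called 0 higher and 9 lower each. Of all tested genes, edgeR called 1.03% lower, and 6.06% were lower at an unadjusted p under 0.05. The list was chosen with earlier results of these data known and includes general genes of mitosis, such as KIF20A. Its share beside that of all tested genes is therefore descriptive only. AURKA, the kinase that drives centrosome maturation, had 116.7 and 114.7 CPM in clofarabine, against 220.0 and 212.6 CPM in DMSO (log2 fold change -0.90, SE 0.067, edgeR adjusted p = 2.9e-08). PLK1, which phosphorylates PCNT and acts upstream of NEK2, had 135.1 and 142.7 CPM in clofarabine, against 227.8 and 246.1 CPM in DMSO (log2 fold change -0.77, SE 0.068, edgeR adjusted p = 3.1e-07). KIF20A, a kinesin of cytokinesis, had the largest fall of the list (log2 fold change -1.38, SE 0.094, edgeR adjusted p = 1.1e-08). The log2 fold changes of STIL, -0.37, and NEK2, -0.26, stand beside the median of -0.35 in this list, so that NEK2 was lower by less than the median gene of the list. Without 1 library, 7 to 10 of the list were called lower.

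Of 14 tested genes of augmin and the spindle pole, 2 fell and 0 rose by edgeR, DESeq2 and limma-voom, with 2 higher and 3 lower at an unadjusted edgeR p under 0.05. TACC3, which AURKA recruits to spindle microtubules and which the previous list also holds, had 103.0 and 110.6 CPM in clofarabine, against 150.1 and 155.8 CPM in DMSO (log2 fold change -0.52, edgeR adjusted p = 1.1e-04). ASPM, a spindle pole protein, had 94.6 and 76.2 CPM in clofarabine, against 118.9 and 137.0 CPM in DMSO (log2 fold change -0.60, edgeR adjusted p = 3.98e-04). The remaining 12 were not called. HAUS1, an augmin subunit, was called higher, among other settings, without C0 (0.31, adjusted p = 0.0425) and without V0 (0.39, adjusted p = 0.0490), and HAUS2 without C0 (0.26, adjusted p = 0.0431). CKAP5, a microtubule polymerase of both lists, was called lower, again among others, without C0 (-0.22, adjusted p = 0.0340) and without C1 (-0.22, adjusted p = 0.0447). HAUS1, HAUS2 and CKAP5 were chosen after their values were seen.

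**Figure D4:**
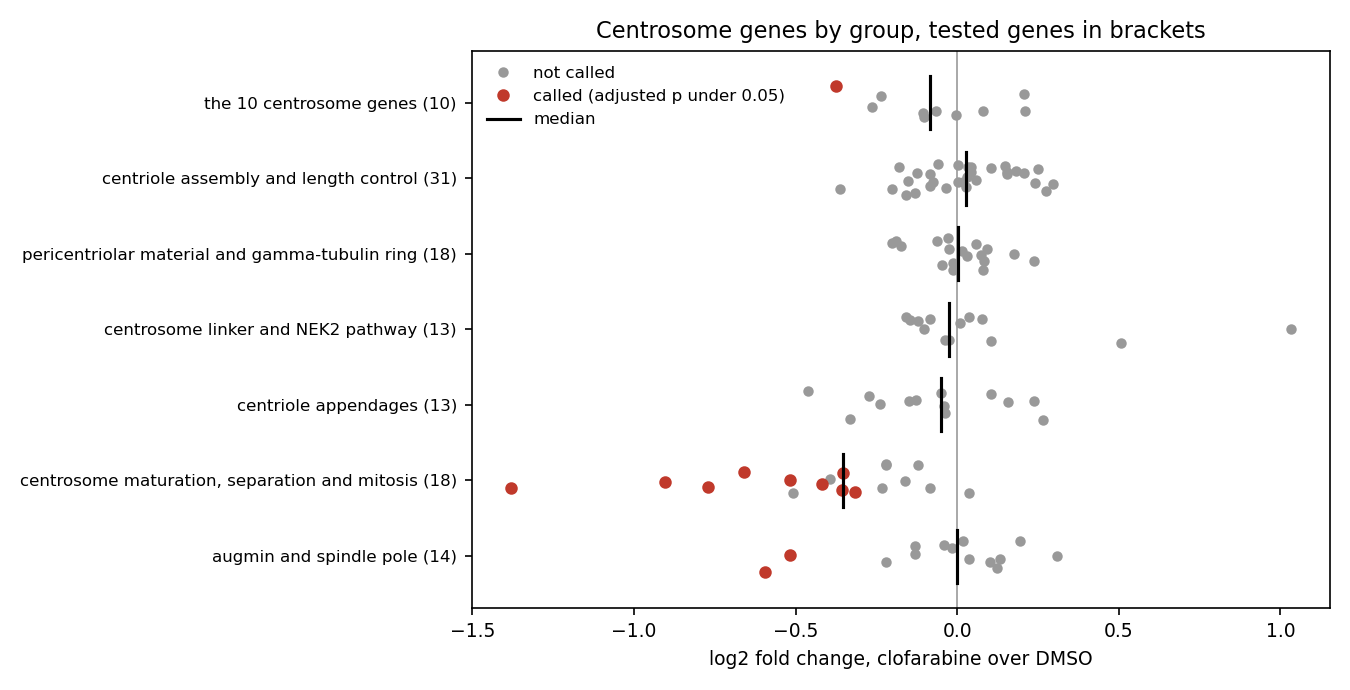
Log2 fold change, clofarabine over DMSO, of the 10 centrosome genes and of the tested genes of 6 lists, with called genes in red, genes not called in grey and the median of each group as a black line. The red points lie in 3 groups, the 10 genes (1), maturation, separation and mitosis (9) and augmin and spindle pole (2), where the last group shares TACC3 with the one above it.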

How the data were processed

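RNA from 4 K562 samples was measured by RNA-seq. Directional libraries were made from TRIzol-extracted RNA, per the labels' protocols. The submitters' processing notes name cutadapt 1.5, TopHat2 2.0.13, Cuffdiff 2.2.1 and the build hg19. Annotation and strand setting were not stated in those sources, so overlapping and antisense genes may share fragments. The authors deposited estimated counts of fragments per gene and library, which need not be whole. Per the file headers the table also holds scaled fragments, a signal that is proportional to the counts within each library, and FPKM made by the authors. A failed status was given for between 1 and 6 genes per library, and values were used as given. The replicate numbers of the labels could not be tied to the library numbers, so only the group of each library was used. A chi-square statistic of the counts was 6.55 per degree of freedom between C0 and C1 and 2.73 between V0 and V1, above sampling noise, so none were combined.

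Counts were rounded, which changed 431 to 483 genes per library. Genes were kept by filterByExpr (minimum count 10), scaled by TMM (factors 0.968 to 1.015), and tested with edgeR 4.0.16 (R 4.3.3, quasi-likelihood, group as the only term), with Benjamini-Hochberg adjustment over 11761 genes and calls at adjusted p under 0.05. Intervals are at 95%. Standard errors are the log2 fold change over the square root of F. The scripts were tested on simulated data. Alternatives used DESeq2 1.42.0, limma 3.58.1 (voom, and trend on log2(FPKM + 1) and log2(FPKM + 0.1)), other scalings and filters, thresholds of 0.01 and 0.1, thinning to equal depth, a loess trend on length (span 0.3), a block on library number and each library left out. Where leaving out a library left 1 in a group, its variability was taken from the other group. Counting errors cover sampling of fragments only.

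The genes and lists were chosen with earlier results of these data known. A marker gene is not reported here. By the naming rule, the text names all 10 genes, marker genes, up to 3 called genes per direction of each list or the gene of smallest p, and the 3 genes nearest to each called member. CETN3, CEP295, CEP57, HAUS1, HAUS2 and CKAP5 fall outside this rule and were named because an alternative called them.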

Additional observations from a re-analysis of the deposited data

How the results depend on the processing

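Over 18 alternatives for each of the 10 genes, 180 values in all, 167 kept their direction and their side of the threshold. The alternatives at thresholds of 0.01 and 0.1 used the main fit, so direction could not change in them. DESeq2 gave no adjusted p for SASS6, CENPJ, CEP135, CEP63 and CEP152, for which only the direction was compared. Of the others, 3 were losses of the STIL call, at unchanged direction, and 5 were calls of NEK2. Direction reversed for PCNT with the length trend removed (0.028), without C1 (0.10) and without V0 (0.12), for SASS6 in libraries thinned to equal depth (0.058), and for CEP135 without C1 (0.14). None of PCNT, SASS6 and CEP135 was called in any of these, and the cause was not tested. The number of the 10 genes called was 1 in the main test, 2 with library sizes alone, 2 with the length trend removed, 2 at a threshold of 0.1, 0 on log2(FPKM + 1), 0 on log2(FPKM + 0.1), and between 0 (without V1) and 2 (without C1) as each library was left out. The number of all genes called was 302 in the main test, 168 with DESeq2, 478 with no filter, 56 on log2(FPKM + 1), 72 on log2(FPKM + 0.1), 481 with the length trend removed, 128 at a threshold of 0.01, 466 at 0.1, and between 130 and 636 as each library was left out.

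With a replicate block on library number, 796 genes and 2 of the 10 were called, STIL and NEK2 (adjusted p = 0.0095 for NEK2). Of the centriole assembly list, CEP57 was then called higher (0.24, adjusted p = 0.0249) and TUBD1 lower (-0.36, adjusted p = 0.0246). The deviations of C0 and V0 from their group means had a correlation of -0.0038 over 11761 genes, so the numbers were not taken to pair the samples. The fewest fragments were those of CEP63, CENPJ and CEP135, with 81, 153 and 165 in V0. Their intervals include changes of over 1.16-fold in the upward direction, as does that of CEP152, with 259 fragments in V0. CEP135 had a counting error of 7.78% in V0, while C1 was lower than C0 by 0.47 on the log2 CPM scale. What set the width of the intervals was not tested.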
